A study of Mus musculus with 16 samples.

Results

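Somatostatin, neuropeptide Y and neuronal nitric oxide synthase mark a sparse class of GABAergic interneuron in the striatum, and the genes described here belong to that class or to its lineage: Sst, Npy, Nos1, Chodl, Elfn1, Nkx2-1 and Lhx6. They are 7 of the 24058 gene symbols in the deposited read-count table. They were chosen by their higher counts in RNA precipitated with astrocyte ribosomes, where these neuronal genes behaved like astrocyte genes, and no numerical threshold was applied. Their difference between precipitate and lysate is therefore a description without a test. Differences between the constructs were not used in the choice and were tested. Each of the 7 symbols matched 1 line of the table and passed the filter on low counts in every fit.

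RNA was sequenced from whole striata of 9-week-old male C57BL/6J mice labelled wildtype. Striatal astrocytes of every animal expressed 1 of 2 constructs. bARK derives from the β-adrenergic receptor kinase, and this peptide binds and attenuates Gq, and bARK(D110A) carries a substitution that impairs this binding. RNA was taken from the ribosomes of astrocytes through a hemagglutinin tag (IP) and from the cleared lysate of the same tissue (input), which gave bARK IP, bARK input, bARK(D110A) IP and bARK(D110A) input libraries, 4 of each. All groups therefore share a construct in astrocytes, and none of the libraries analysed here came from an animal without one. The sources used here give neither the promoter that drives the construct nor the protein that carries the tag. Libraries held, in M counted reads (M, 1000000), 41.5 to 47.2 in bARK IP, 27.8 to 38 in bARK input, 44.6 to 51.4 in bARK(D110A) IP and 29.1 to 37.3 in bARK(D110A) input. Nothing in the labels states that the numbered libraries of a group come from separate animals, and p-values then measure only their spread, which may be technical.

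The labelled cell type was checked first. All 12 astrocyte markers were higher in IP in both constructs, with a median log2 fold change of 2.60 in bARK and 2.40 in bARK(D110A). The folate enzyme gene Aldh1l1, a common marker of astrocytes, averaged 470 CPM (reads per M counted reads, after TMM scaling) in bARK IP, against 69.4 CPM in bARK input. In bARK(D110A) it averaged 403 CPM in IP and 69.8 CPM in input. All 12 markers of medium spiny neurons, the projection neurons that make up most striatal neurons, were lower in IP, with medians of -1.13 in bARK and -0.99 in bARK(D110A). All 8 microglial and all 6 endothelial markers were lower in IP in both constructs, with medians between -3.81 and -5.62. Not every other class was lower. Of 6 ependymal and choroid plexus markers, 4 were higher in both constructs, with medians of 2.18 in bARK and 1.73 in bARK(D110A). Of all genes, 37.6% were called higher in bARK and 36.5% in bARK(D110A). The 8 oligodendrocyte markers had medians of 0.24 in bARK and 0.17 in bARK(D110A), and 6 markers of their precursors 0.05 and -0.31. Over all 15850 genes tested the median was -0.01 in both constructs.

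Interneurons of this class release GABA together with somatostatin and neuropeptide Y, 2 peptides that act on G protein-coupled receptors, and they make nitric oxide, which raises cGMP in target cells. They arise in the embryonic medial ganglionic eminence, where the homeodomain factor Nkx2-1 switches on the LIM-homeodomain factor Lhx6. Nkx2-1 stays on in many striatal interneurons of adult mice, and Lhx6 in those that express Sst or Pvalb. Chodl encodes a C-type lectin-like membrane protein and marks, in the mouse cortex, the neurons that express Sst and Nos1 together. Elfn1 encodes a leucine-rich repeat protein of the postsynaptic membrane that recruits presynaptic glutamate receptors onto Sst interneurons. A further class of striatal interneuron, the neurogliaform cells, makes Npy without Sst or Nos1.

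The start regions of Sst, Npy and Nos1, the 3 genes whose libraries are followed most closely here, are shown as background. They are the 250 bases before a RefSeq transcript start in build GRCm38.p6, the assembly also called mm10. Capitals mark a full cAMP response element, TGACGTCA, the site through which the factor CREB is known to act on the somatostatin gene. The Sst window is chr16:23890845-23891094 on the minus strand, the Npy window chr6:49822460-49822709 on the plus strand and the Nos1 window chr5:117866589-117866838 on the plus strand.
Sst: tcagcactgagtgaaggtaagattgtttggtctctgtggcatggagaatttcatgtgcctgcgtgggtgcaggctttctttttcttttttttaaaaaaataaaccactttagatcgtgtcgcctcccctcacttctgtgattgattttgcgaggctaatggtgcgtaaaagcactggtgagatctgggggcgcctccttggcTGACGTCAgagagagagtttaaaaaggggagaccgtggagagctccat
Npy: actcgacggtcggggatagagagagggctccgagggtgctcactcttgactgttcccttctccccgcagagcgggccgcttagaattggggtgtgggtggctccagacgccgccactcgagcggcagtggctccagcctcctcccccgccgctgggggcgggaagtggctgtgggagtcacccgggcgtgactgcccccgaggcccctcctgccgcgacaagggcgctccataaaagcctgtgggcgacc
Nos1: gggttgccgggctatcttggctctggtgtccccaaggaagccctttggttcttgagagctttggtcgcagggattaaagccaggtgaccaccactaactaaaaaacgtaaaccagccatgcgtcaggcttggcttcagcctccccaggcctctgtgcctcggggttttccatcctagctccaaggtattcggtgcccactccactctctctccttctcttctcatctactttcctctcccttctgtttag
The Npy window was 69.2% G or C, the Nos1 window 54% and the Sst window 47.2%. In a search of both strands of 32851 start regions, each with 250 bases before and 50 after the start, 1.79% held TGACGTCA. Of the 9 regions of the 7 genes, only that of Sst held it, at bases -48 to -41 from the start. TATAAA was in 13.6% of all regions and in 1 of the 9, an Lhx6 region. There it lay on the opposite strand and after the start, at bases 3 to 8. TAATTA, a core often bound by homeodomain factors, was in 5.29% of all regions and in 0 of the 9. These are matches of letters and not measured sites, and no relation of them to the levels in IP or input was tested.

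All 7 genes were higher in IP than in input in both constructs, and the 4 IP and 4 input libraries of a construct did not overlap for any of them. In edgeR's test 37.6% of all genes were called higher and 38.1% lower in IP in bARK, and 36.5% higher and 37.2% lower in bARK(D110A). Because the genes were chosen by this contrast, nothing is read from their count or from the absence of overlap. The share of all genes without such overlap was not computed. The folds fell into a higher range for Nos1, Sst, Npy and Chodl, between 4.23 and 5.99, and a lower one for Lhx6, Nkx2-1 and Elfn1, between 1.99 and 3.34. Between the constructs, bulk RNA cannot tell more or fewer cells of a type from more or less RNA per cell. IP and input come from the same tissue, and what made these RNAs higher in IP was not tested. Scaling by library size alone moved the median of all genes by -0.14 in bARK and -0.16 in bARK(D110A), with 4806 genes called higher and 7333 lower in bARK under it, where TMM scaling gave 5966 and 6044, and 4459 higher and 7473 lower in bARK(D110A), where TMM gave 5786 and 5891. All 7 genes stayed higher in IP under that scaling.

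Sst, which encodes the inhibitory peptide somatostatin (chr16:23889573-23891342), had 201, 256, 204 and 230 CPM in bARK IP libraries 1 to 4, against 39, 42.6, 49.7 and 49.7 CPM in bARK input. It had 195, 194, 230 and 187 CPM in bARK(D110A) IP, against 41.5, 52.8, 47.5 and 41.8 CPM in bARK(D110A) input. The IP libraries were all at least 3.54 times the highest input library of their construct. The log2 fold change of IP over input was 2.30 ± 0.11 in bARK and 2.13 ± 0.11 in bARK(D110A), where ± gives the standard error and n was 4 libraries a group. By replicate number, IP was between 4.11 and 6.01 times input in bARK and between 3.68 and 4.85 times input in bARK(D110A).

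Npy, which encodes neuropeptide Y (chr6:49822710-49829507), followed Sst closely. It had 171, 214, 168 and 185 CPM in bARK IP and 37.9, 37.5, 43.5 and 43.1 CPM in bARK input. In bARK(D110A) it had 157, 168, 199 and 166 CPM in IP and 37.3, 43.7, 39 and 38.1 CPM in input. As for Sst, bARK IP 2 and bARK(D110A) IP 3 were the highest libraries of their groups. The log2 fold change was 2.18 ± 0.09 in bARK and 2.13 ± 0.09 in bARK(D110A). The ratio of Npy to Sst reads within a library averaged 0.828 ± 0.0183 in bARK IP and 0.899 ± 0.0488 in bARK input, and 0.856 ± 0.0336 in bARK(D110A) IP and 0.865 ± 0.0469 in bARK(D110A) input (SD, n = 4). The ranges of this ratio overlapped between IP and input in bARK(D110A) but not in bARK, where they ended at 0.848 in IP and began at 0.868 in input.

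Nos1, the neuronal nitric oxide synthase (chr5:117866839-117958840), had the highest folds of the 7. It had 331, 428, 346 and 358 CPM in bARK IP, against 63.7, 53.6, 62.9 and 64 CPM in bARK input. In bARK(D110A) it had 308, 267, 364 and 278 CPM in IP, against 54.3, 58.8, 63.1 and 56.6 CPM in input. Library 2 of bARK was the highest of all 8 IP libraries and the lowest of all 8 input libraries, so that this replicate number gave 7.99-fold, while the other bARK numbers gave 5.19 to 5.59-fold and the bARK(D110A) numbers 4.54 to 5.78-fold. The log2 fold change was 2.58 ± 0.10 in bARK and 2.39 ± 0.10 in bARK(D110A). Nos1 stood at place 105 of 15850 genes by this fold in bARK and at place 68 in bARK(D110A). Gm37028 on the same strand and Gm26995 on the opposite strand overlap Nos1 in the GENCODE annotation, and the sources used here do not say how such reads were assigned.

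Chodl (chr16:78930841-78951736) was the least abundant of the neurochemical markers. It had 8.85, 14.3, 11.1 and 10.6 CPM in bARK IP and 2.05, 3.22, 2.93 and 1.82 CPM in bARK input. It had 10.3, 9.17, 12.6 and 10.4 CPM in bARK(D110A) IP and 2.57, 2.59, 2.54 and 2.35 CPM in bARK(D110A) input. These values rest on 384 to 614 reads a library in IP and 67 to 117 in input. The log2 fold change was 2.16 ± 0.17 in bARK and 2.08 ± 0.17 in bARK(D110A), within 1 standard error of those of Npy.

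Elfn1 (chr5:139907591-139974725) had the smallest folds of the 7 and the narrowest gap between IP and input. It had 33.6, 28.7, 31.1 and 25.4 CPM in bARK IP, against 12.3, 18.8, 16.8 and 11.8 CPM in bARK input. In bARK(D110A) it had 28.4, 32.1, 38.8 and 47.5 CPM in IP, against 10.9, 22.8, 16.6 and 19.8 CPM in input. The lowest IP library was 1.35 times the highest input library in bARK and 1.24 times in bARK(D110A). The log2 fold change was 0.99 ± 0.22 in bARK and 1.06 ± 0.22 in bARK(D110A). The pseudogene Gm43704 lies on the opposite strand within Elfn1, and its reads cannot be told from those of Elfn1 if strand was not used in counting.

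The transcription factors lay between these. Lhx6 (chr2:36081950-36105992) had 72.7, 76.6, 72.6 and 62.4 CPM in bARK IP, against 19, 22, 23.3 and 20.7 CPM in bARK input. It had 70.7, 64.1, 79.8 and 79.4 CPM in bARK(D110A) IP, against 17.7, 25.1, 23.1 and 24.5 CPM in bARK(D110A) input. The log2 fold change of Lhx6 was 1.74 in bARK and 1.70 in bARK(D110A), each with a standard error of 0.10. Nkx2-1 (chr12:56531935-56536908) had 7.05, 7.13, 7.08 and 5.55 CPM in bARK IP, against 2.38, 2.57, 2.2 and 2.22 CPM in bARK input. It had 6.88, 5.51, 7.84 and 6.38 CPM in bARK(D110A) IP, against 2.1, 3.64, 3.45 and 2.7 CPM in bARK(D110A) input. Its log2 fold change was 1.52 ± 0.16 in bARK and 1.16 ± 0.15 in bARK(D110A), and by replicate number IP was 2.5 to 3.21 times input in bARK and 1.51 to 3.29 times input in bARK(D110A). The antisense gene Gm26973 overlaps Nkx2-1 and Gm27953 overlaps Lhx6, with the same limit on counting.

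**Figure D1:**
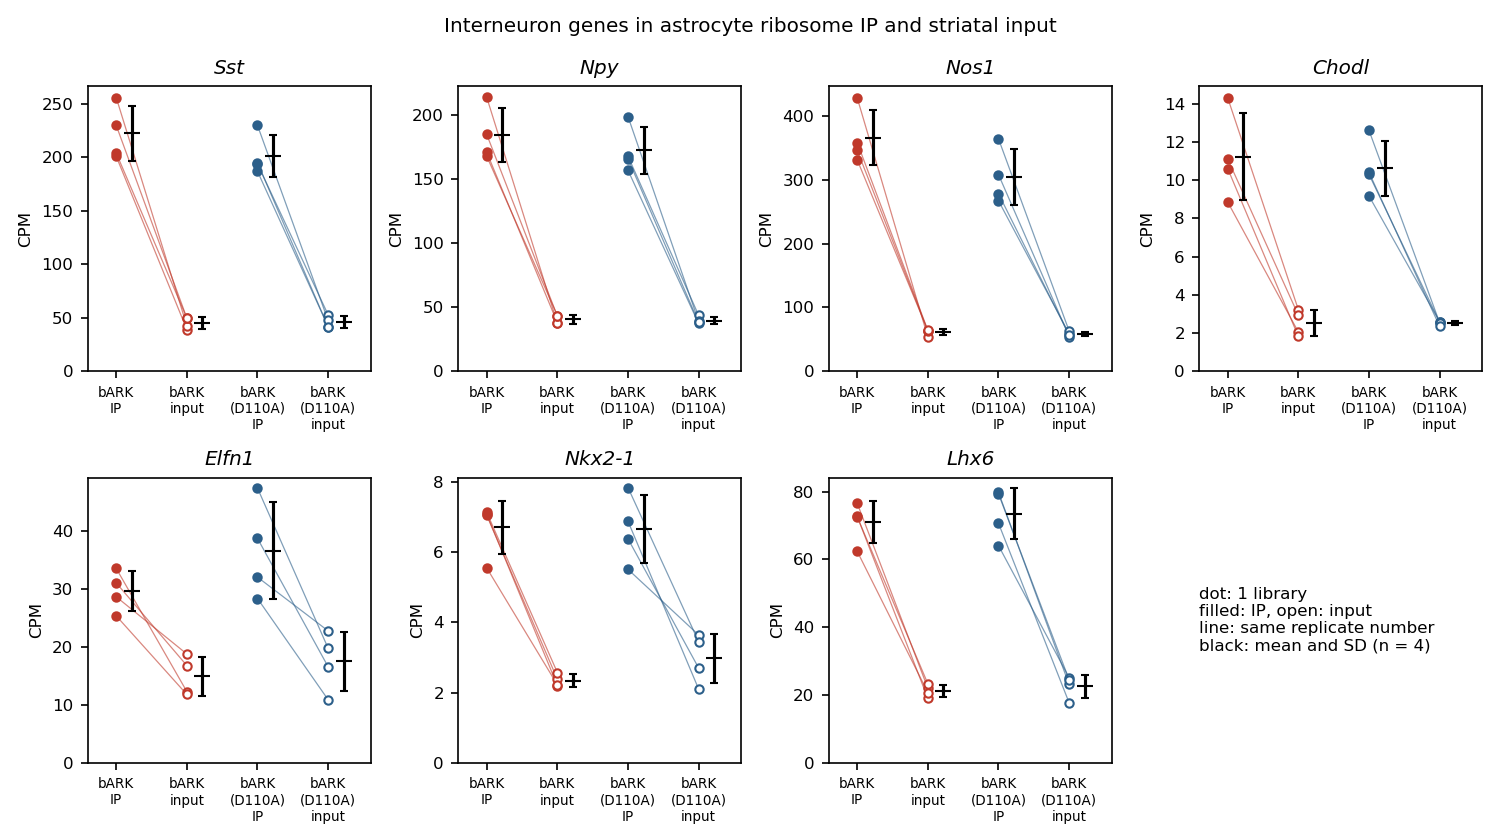
CPM of the 7 genes in each library (y axis, CPM from 0, own scale for each gene) in bARK IP, bARK input, bARK(D110A) IP and bARK(D110A) input (x axis). Dots are libraries, lines join the same replicate number and black bars are the mean and SD of 4. IP libraries lie above input libraries in every panel, with the narrowest gap for Elfn1, 1.24 times in bARK(D110A).

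Some libraries stood apart for several of the genes. bARK(D110A) input 2 had the highest value of the 8 input libraries for 5 of the 7 genes, Sst, Npy, Elfn1, Nkx2-1 and Lhx6. The summed level of 8 markers of parvalbumin and calretinin interneurons was 345 CPM in that library and 172 to 229 CPM in the other 7 input libraries, and the part of this difference in the values above was not tested. Markers of cortical excitatory neurons were also higher in libraries 2 than in the other libraries of this construct. Their summed level was 1080 CPM in bARK(D110A) IP 2, against 522 to 725 CPM in the other bARK(D110A) IP libraries and 583 to 929 CPM in bARK IP, and 1230 CPM in bARK(D110A) input 2, against 953 to 1050 CPM in the other bARK(D110A) input libraries and 989 to 1300 CPM in bARK input. Camk2a and Nrgn, which are in this sum, averaged 689 and 310 CPM in bARK(D110A) input. Slc17a7, a vesicular glutamate transporter of such neurons, had 188 CPM in bARK(D110A) IP 2 and 14.1 to 145 CPM in the other 7 IP libraries, and 120 CPM in bARK(D110A) input 2 and 9.65 to 86.3 CPM in the other 7 input libraries. The 145 and 86.3 CPM were those of bARK IP 4 and bARK input 4, which also had the sums of 929 and 1300 CPM. The part of these markers was not tested either. Replicate number 2 of bARK(D110A) gave the lowest ratio of IP to input of its construct for all 7 genes, from 1.41-fold for Elfn1 to 4.54-fold for Nos1. It was also the lowest for Aldh1l1, at 5-fold against 5.65 to 6.45-fold in the other bARK(D110A) numbers, and for Chat, at 3.38-fold against 3.95 to 4.9-fold. In IP, bARK library 2 had the highest value of 8 for 4 of the 7 genes, Sst, Npy, Nos1 and Chodl. Over all alternatives, leaving out each library included, the log2 fold changes of both constructs stayed within 2.23 and 2.61 for Nos1, 1.97 and 2.35 for Sst and 0.85 and 1.22 for Elfn1.

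**Figure D2:**
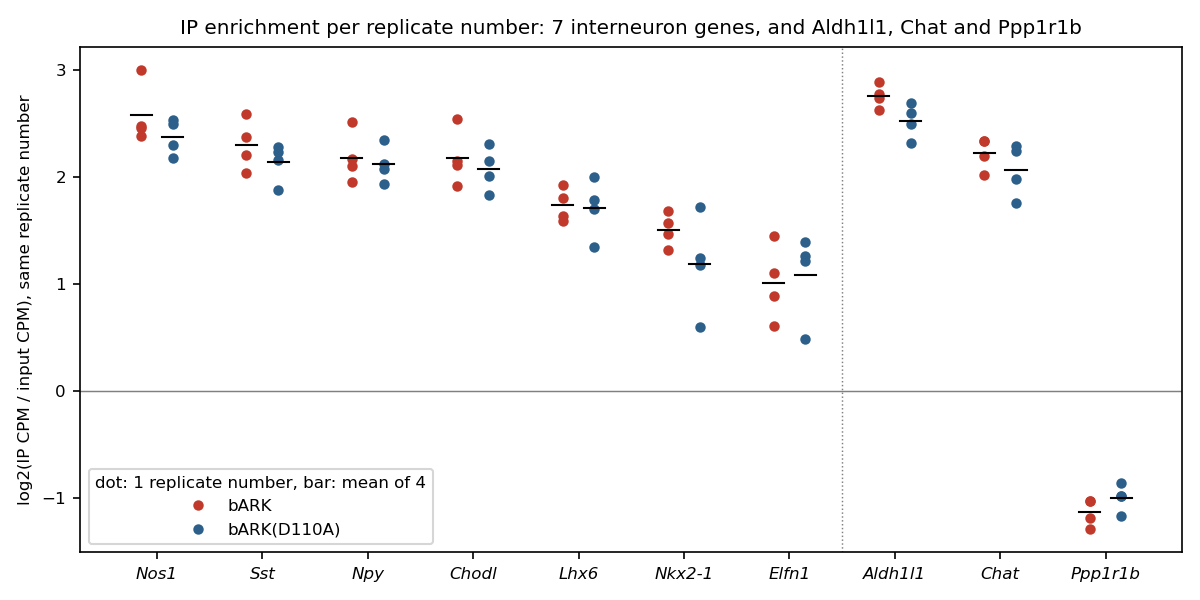
log2 of IP CPM over input CPM for the same replicate number (y axis), for the 7 genes and for Aldh1l1, Chat and Ppp1r1b (x axis). Each dot is 1 replicate number, bars are means of 4. Nos1, Sst, Npy and Chodl lie between 1.83 and 3.00, Aldh1l1 between 2.32 and 2.89, and Ppp1r1b below 0.

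Levels of different genes were compared per kilobase of merged exons. By this scale the order was the same in all 4 groups: Npy, Sst, Nos1, Lhx6, Elfn1, Nkx2-1 and Chodl. Npy averaged 326 ± 37.3 CPM per kb and Sst 309 ± 35.4 CPM per kb in bARK IP, and 71.6 ± 5.74 and 62.8 ± 7.41 CPM per kb in bARK input (SD, n = 4). Their ranges overlapped in every group, so the order of the first 2 is within the spread. Nos1 was lower, at 32.8 ± 3.85 CPM per kb in bARK IP and 5.48 ± 0.45 CPM per kb in bARK input. In bARK input Nos1 and Lhx6 overlapped, from 4.8 to 5.74 CPM per kb for Nos1 and 3.96 to 4.86 CPM per kb for Lhx6, while in bARK IP they did not. Chodl was last, at 2.04 ± 0.416 CPM per kb in bARK IP and 0.456 ± 0.124 CPM per kb in bARK input. Nkx2-1 and Chodl overlapped in bARK IP, from 1.95 to 2.51 CPM per kb for Nkx2-1 and 1.61 to 2.61 CPM per kb for Chodl.

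No gene was called by edgeR between bARK and bARK(D110A), the comparison that asks how attenuating Gq in astrocytes changed RNA. In IP 0 of 15006 genes, or 0%, passed edgeR's test, 1287 had an unadjusted p under 0.05 and DESeq2 called 47 of the 8896 genes to which it gave an adjusted p. In input 0 of 15361 genes, or 0%, passed, 904 had an unadjusted p under 0.05 and DESeq2 called 7 of 1066. For the change in IP enrichment from one construct to the other 0 of 15850 genes, or 0%, passed, 951 had an unadjusted p under 0.05 and DESeq2 called 0 of 15849. None of the 7 genes was called by either tool in any of the 3, although DESeq2 gave no adjusted p to Chodl and Nkx2-1 in IP and to any of the 7 in input.

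Within IP, Nos1 had the largest positive difference of the 7, averaging 366 ± 42.9 CPM in bARK and 304 ± 43.7 CPM in bARK(D110A) (SD, n = 4). The ranges overlapped, since bARK(D110A) IP 3 at 364 CPM lay above 3 of the 4 bARK libraries. The log2 difference was 0.26 ± 0.10 with a 95% interval from 0.04 to 0.48, a fold of 1.03 to 1.39, and an adjusted p of 0.546. Leaving out libraries and changing the scaling gave 0.18 to 0.34, with adjusted p from 0.29 to 0.909. In the same comparison all 12 astrocyte markers were above 0, from 0.06 to 0.24 on the log2 scale, and their part in the Nos1 value was not tested. Elfn1 had the largest negative difference, averaging 29.7 ± 3.48 CPM in bARK IP and 36.7 ± 8.39 CPM in bARK(D110A) IP, a log2 difference of -0.31 ± 0.16 with an interval from -0.67 to 0.05 and an adjusted p of 0.601. Sst gave 0.14 with an interval from -0.05 to 0.32, and Npy gave 0.09 with an interval from -0.10 to 0.28. For these 2 peptides the intervals leave room for folds up to 1.25 and 1.21 in bARK and down to 0.967 and 0.931. Chodl, Nkx2-1 and Lhx6 gave 0.07, 0.00 and -0.06, with intervals that reached from -0.24 to 0.37 for Chodl, from -0.25 to 0.26 for Nkx2-1 and from -0.22 to 0.10 for Lhx6.

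Within input, Sst averaged 45.3 ± 5.34 CPM in bARK and 45.9 ± 5.36 CPM in bARK(D110A), a log2 difference of -0.03 with an interval from -0.25 to 0.20. Npy gave 0.03, with an interval from -0.13 to 0.19, and Nos1 gave 0.06, with an interval from -0.08 to 0.21. Nkx2-1 had the largest difference, at 2.34 ± 0.172 CPM in bARK and 2.97 ± 0.71 CPM in bARK(D110A), a log2 value of -0.36 ± 0.18 with an interval from -0.75 to 0.04 and an adjusted p of 0.774. Elfn1 gave -0.24, with the widest interval, from -0.81 to 0.33. Lhx6 gave -0.10 and Chodl -0.01.

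For the IP enrichment itself, bARK minus bARK(D110A) was largest for Nkx2-1, a log2 value of 0.36 ± 0.22 with an interval from -0.10 to 0.82 and an adjusted p of 0.848. Nos1 gave 0.19 with an interval from -0.10 to 0.49, and Sst gave 0.16 with an interval from -0.14 to 0.47. Chodl, Npy, Lhx6 and Elfn1 gave 0.09, 0.06, 0.04 and -0.07. The astrocyte markers were all above 0 in this comparison, from 0.14 to 0.35, and none was called.

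**Figure D3:**
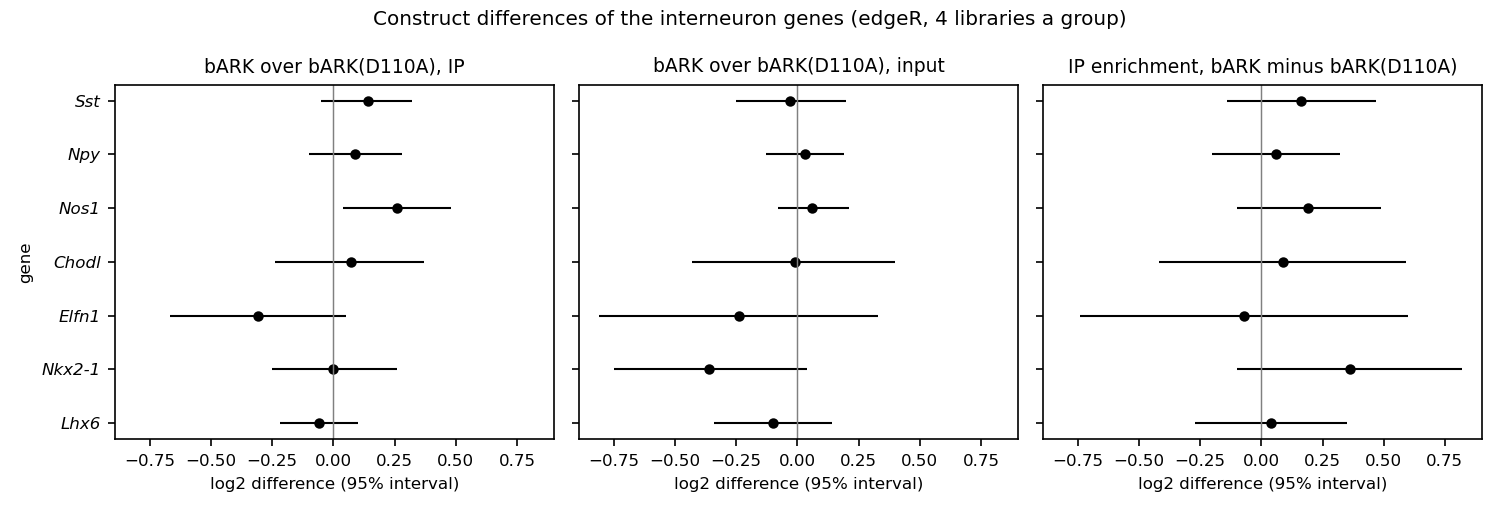
log2 differences between bARK and bARK(D110A) (x axis) for the 7 genes (y axis) in IP, in input and for the IP enrichment, with 95% intervals from edgeR, 4 libraries a group. Of the 21 intervals only that of Nos1 in IP, from 0.04 to 0.48, lies above 0, and its adjusted p was 0.546.

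Within a fraction, libraries with more Sst had more Npy. The correlation of log2(CPM + 1) over the 8 IP libraries was 0.95 for Sst and Npy, with an exact permutation p of 0.00141, or 0.00382 adjusted over the 6 relations tested. For Sst and Nos1 it was 0.92, with an exact p of 0.000645 and an adjusted p of 0.00382, and for Npy and Nos1 0.82, with an exact p of 0.0106 and an adjusted p of 0.0159. Spearman's rho was 0.90, 0.98 and 0.88 for these 3 pairs, with exact permutation p of 0.00456, 0.000397 and 0.00724. Without bARK IP 2 and bARK(D110A) IP 3, which lay farthest from the median, r was 0.85, 0.81 and 0.54, with exact permutation p of 0.0542, 0.0264 and 0.301, so the relation of Npy and Nos1 rests on those libraries and that of Sst and Npy no longer passed 0.05. The summed level of the astrocyte markers was also highest in these 2 libraries of their groups, 40300 CPM in bARK IP 2 against 33600 to 35300 CPM in the other bARK IP libraries, and 35000 CPM in bARK(D110A) IP 3 against 28400 to 31500 CPM in the other bARK(D110A) IP libraries. The part of that level in the relations was not tested. Pairs of other genes were not correlated, so the p-values in IP do not set these 3 genes apart from other genes high in IP. In input Sst and Npy gave 0.91, with an exact p of 0.00191 and an adjusted p of 0.00382, a rho of 0.88 with an exact p of 0.00724, and an r of 0.92 without the 2 farthest libraries, with an exact permutation p of 0.00694. Input libraries of 27.8 to 31.8 M counted reads had 39 to 42.6 CPM of Sst and 37.3 to 38.1 CPM of Npy. Those of 33.2 to 38 M had 47.5 to 52.8 CPM of Sst and 39 to 43.7 CPM of Npy. The part of library size in this relation was not tested, and other pairs of genes were not correlated in input either. Nos1 did not pass with either peptide in input, at 0.37 with Sst and 0.53 with Npy, with exact permutation p of 0.356 and 0.166 and rho of 0.17 and 0.48, with exact p of 0.703 and 0.243. Without bARK(D110A) input 2 and bARK input 1, however, Sst and Nos1 gave 0.94, with an exact permutation p of 0.0472. Within constructs, with values centred on the mean of each construct and permuted inside it, a check chosen after the data were seen, the 3 pairs gave 0.95, 0.91 and 0.84 in IP, in the order Sst and Npy, Sst and Nos1, Npy and Nos1, with exact permutation p of 0.0139, 0.00868 and 0.0451 and adjusted p of 0.0278, 0.026 and 0.0677, so Npy and Nos1 no longer passed. In input they gave 0.94, 0.42 and 0.50, with exact permutation p of 0.00868, 0.363 and 0.297 and adjusted p of 0.026, 0.363 and 0.356.

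**Figure D4:**
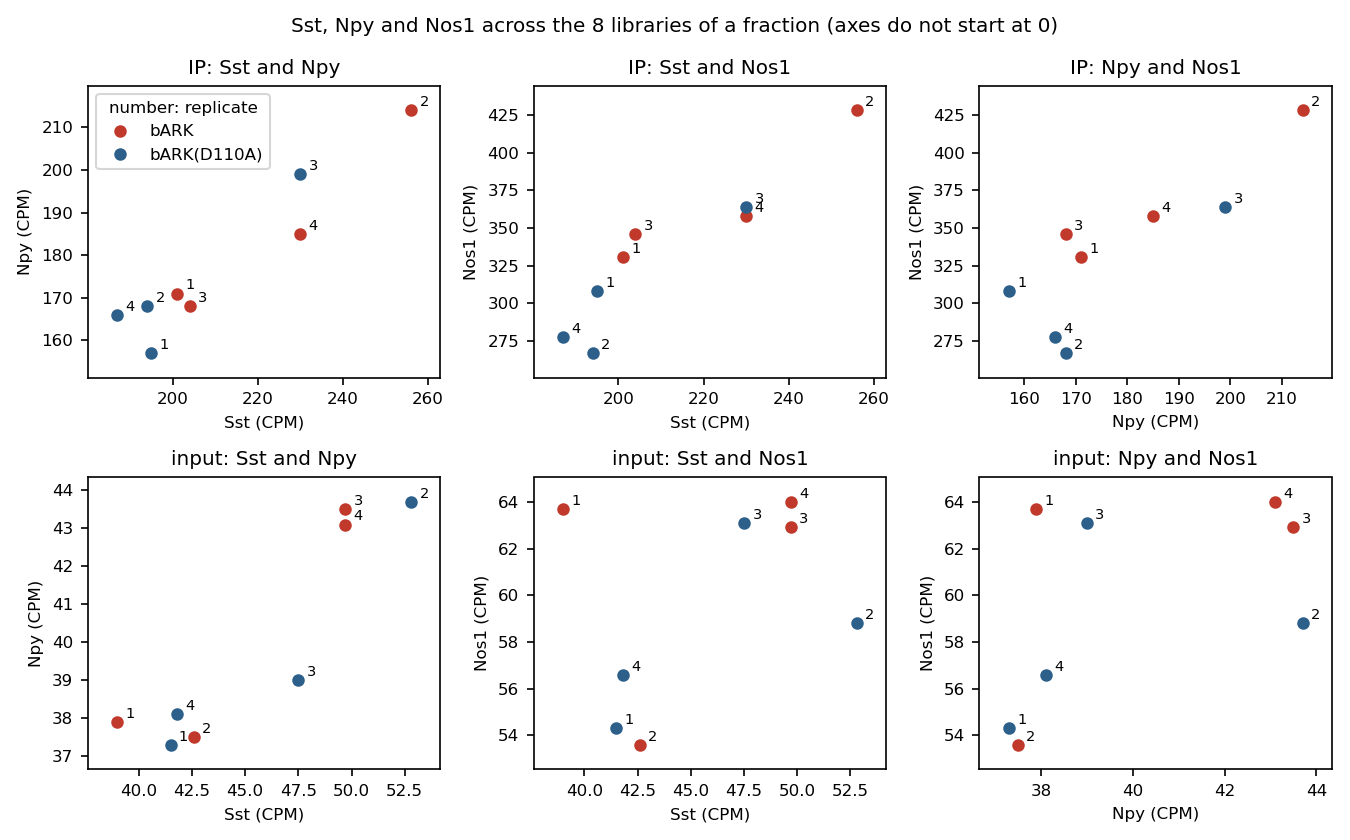
CPM of Sst, Npy and Nos1 plotted against each other over the 8 IP (top) and 8 input (bottom) libraries; both axes are in CPM and do not start at 0, and numbers are replicate numbers. In IP bARK library 2 lies at the upper right, at 256 CPM for Sst, 214 CPM for Npy and 428 CPM for Nos1.

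Other genes known from these cells were set beside the 7, and their counts are to be read against the shares of all genes called, 37.6% higher and 38.1% lower in bARK and 36.5% higher and 37.2% lower in bARK(D110A). Of 7 co-markers of Sst and Npy cells, 5 were called higher and 1 lower in both constructs, or 6 higher in bARK(D110A) with the replicate number as a block, with a median log2 fold change of 1.17 in bARK and 1.27 in bARK(D110A). Tacr1, a substance P receptor gene, averaged 111 ± 15 CPM in bARK IP and 23.6 ± 1.64 CPM in bARK input (SD, n = 4). In bARK(D110A) it averaged 98.8 ± 14 CPM in IP and 21.5 ± 1.3 CPM in input. Its log2 fold change was 2.24 ± 0.10 in bARK and 2.20 ± 0.10 in bARK(D110A). Crhbp, which encodes the binding protein of corticotropin-releasing hormone, rose by 1.59 on the log2 scale in bARK and 2.04 in bARK(D110A). Grin3a, an NMDA receptor subunit, rose by 1.49 in bARK and 1.27 in bARK(D110A). Calb1, a calcium buffer that medium spiny neurons also make, was lower, with log2 values of -0.79 in bARK and -0.40 in bARK(D110A), and the call in bARK(D110A) was lost without IP 1, IP 2, input 3 or input 4. Cort, the peptide closest to somatostatin, gave 1.05 ± 0.84 in bARK and 1.58 ± 0.84 in bARK(D110A) and was not called. With the replicate number as a block, or without bARK(D110A) input 2, it was called in bARK(D110A).

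Of 7 co-markers of neurogliaform cells, 4 were higher in both constructs, or 5 with the replicate number as a block, with medians of 1.59 in bARK and 1.52 in bARK(D110A). Id2, a transcription regulator found in many cell types, had log2 fold changes of 2.30 in bARK and 2.14 in bARK(D110A). Ndnf, a secreted factor, had 2.09 in bARK and 1.74 in bARK(D110A), and Htr3a, a serotonin-gated channel subunit, 1.74 in bARK and 1.57 in bARK(D110A). On the lower side 2 were called in bARK and 1 in bARK(D110A). The count in bARK(D110A) became 2 with the block, with scaling by library size alone, or without IP 3 or input 2. Lamp5, a marker of the same list, was lower in both constructs, at -1.26 in bARK and -0.94 in bARK(D110A). Reln was lower in bARK, at -0.46, and was not called in bARK(D110A), at -0.20. Among 17 other transcription factors of interneuron lineages, 8 were higher and 4 lower in bARK and 6 higher and 4 lower in bARK(D110A), and read against the shares of all genes these counts are no result about the list. Gbx2 rose by 2.25 in bARK and 1.75 in bARK(D110A). Lhx8, and likewise Sox6, which acts after Lhx6 in this lineage, rose by 1.53 in bARK and 1.42 in bARK(D110A). Gbx2 and Lhx8 also mark cholinergic interneurons and stand in both lists.

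Of 10 receptors of somatostatin and neuropeptide Y, 8 passed the filter, of which 2 were higher and 3 lower in IP in each construct. With 37.6% of all genes higher and 38.1% lower in bARK, and 36.5% and 37.2% in bARK(D110A), these counts are no result about the receptors. Npy2r, a receptor often found on the terminals of Npy neurons, averaged 19.4 ± 3.75 CPM in bARK IP and 7.74 ± 2.52 CPM in bARK input. In bARK(D110A) it averaged 22.1 ± 4.34 CPM in IP and 8.09 ± 2.08 CPM in input. Its log2 fold change was 1.32 ± 0.24 in bARK and 1.45 ± 0.24 in bARK(D110A). Npy1r, a postsynaptic receptor, was lower, at 5.7 ± 0.665 CPM in bARK IP and 12 ± 1.66 CPM in bARK input, with log2 values of -1.08 in bARK and -0.92 in bARK(D110A). Npy5r had -1.03 in bARK and -0.61 in bARK(D110A). Npy6r had 0 reads in every library.

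Of 18 genes around nitric oxide, 3 were higher and 12 lower in bARK, and 3 higher and 10 lower in bARK(D110A), with medians of -0.62 in bARK and -0.36 in bARK(D110A). Of all genes, 37.6% were called higher and 38.1% lower in bARK, and 36.5% higher and 37.2% lower in bARK(D110A). The nitric oxide list also shares a gene with the medium spiny neuron markers, which were lower in IP. Nos3, the endothelial synthase, was lower by log2 values of -1.83 in bARK and -1.87 in bARK(D110A). Nos2, the inducible form, had 0 to 3 reads in bARK IP libraries and 11 to 19 in bARK input, 1 to 2 in bARK(D110A) IP and 16 to 23 in bARK(D110A) input, and log2 values of -3.38 ± 0.45 in bARK and -3.78 ± 0.44 in bARK(D110A). Nostrin, a trafficking protein of the endothelial synthase, gave -3.58 in both constructs. Ddah1, which degrades an endogenous inhibitor of the synthases, was higher, at 406 ± 50.9 CPM in bARK IP and 80.1 ± 6.6 CPM in bARK input, with log2 values of 2.34 in bARK and 2.22 in bARK(D110A). All 5 tested synaptic partners and relatives of Elfn1 were lower in IP, where Elfn1 itself was higher: the kainate receptor subunit Grik2 had -1.26 in bARK and -1.13 in bARK(D110A), the metabotropic glutamate receptor Grm4 -1.26 in bARK and -1.04 in bARK(D110A), and Grm7 -1.08 in bARK and -0.87 in bARK(D110A).

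Other interneuron classes were set beside the 7 genes. Of all genes, 37.6% were called higher and 38.1% lower in bARK, and 36.5% higher and 37.2% lower in bARK(D110A). Of 7 cholinergic markers, 6 were higher in both constructs, with medians of 2.19 in bARK and 1.98 in bARK(D110A). Isl1 was not called, at -0.19 in bARK and -0.11 in bARK(D110A). With the replicate number as a block, other scalings, DESeq2, or without IP 3, input 3 or input 4, 1 of the 7 was called lower in bARK. Chat, which makes acetylcholine, averaged 120 ± 12.8 CPM in bARK IP and 25.8 ± 2.43 CPM in bARK input. Slc18a3, the vesicular transporter of acetylcholine, rose by 2.19 in bARK and 1.98 in bARK(D110A). Of 8 markers of parvalbumin, calretinin and related classes, 3 were higher and 0 lower in both constructs, with medians of 0.33 in bARK and 0.19 in bARK(D110A). Read against the shares of all genes, the 3 higher calls are no result about this list. Th, the enzyme of catecholamine synthesis that a striatal interneuron class expresses, rose by 1.83 in bARK and 2.01 in bARK(D110A), Pthlh by 1.31 in bARK and 1.16 in bARK(D110A), and the potassium channel gene Kcnc1 by 0.34 in bARK and 0.26 in bARK(D110A). Kcnc1 was no longer called under scaling by library size alone, at 0.20 in bARK and 0.10 in bARK(D110A), nor in bARK(D110A) without input 1, at 0.19. Pvalb was not called, at -0.27 ± 0.39 in bARK and -0.71 ± 0.38 in bARK(D110A).

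General GABA and neuron genes were counted last. Of 4 GABA neuron genes, 2 were higher in both constructs, and 2 were lower in bARK and 0 in bARK(D110A). The 2 lower calls became 1 without bARK IP 2 or bARK input 3 and 0 without bARK IP 4, and 1 was lower in bARK(D110A) under scaling by library size alone. Gad1, which makes GABA, rose by 0.25 in bARK and 0.33 in bARK(D110A). Gad1 lost its call in bARK under scaling by library size alone, at 0.10. The list of 10 markers shared by most neurons had 4 called higher and 4 lower in bARK and 5 higher and 2 lower in bARK(D110A), with medians of 0.00 in bARK and 0.17 in bARK(D110A). The 2 lower calls in bARK(D110A) became 4 under scaling by library size alone and 3 with the replicate number as a block, which gave 6 higher. Read against the shares of all genes, 37.6% higher and 38.1% lower in bARK and 36.5% and 37.2% in bARK(D110A), the counts of these 2 lists are no result about them.

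**Figure D5:**
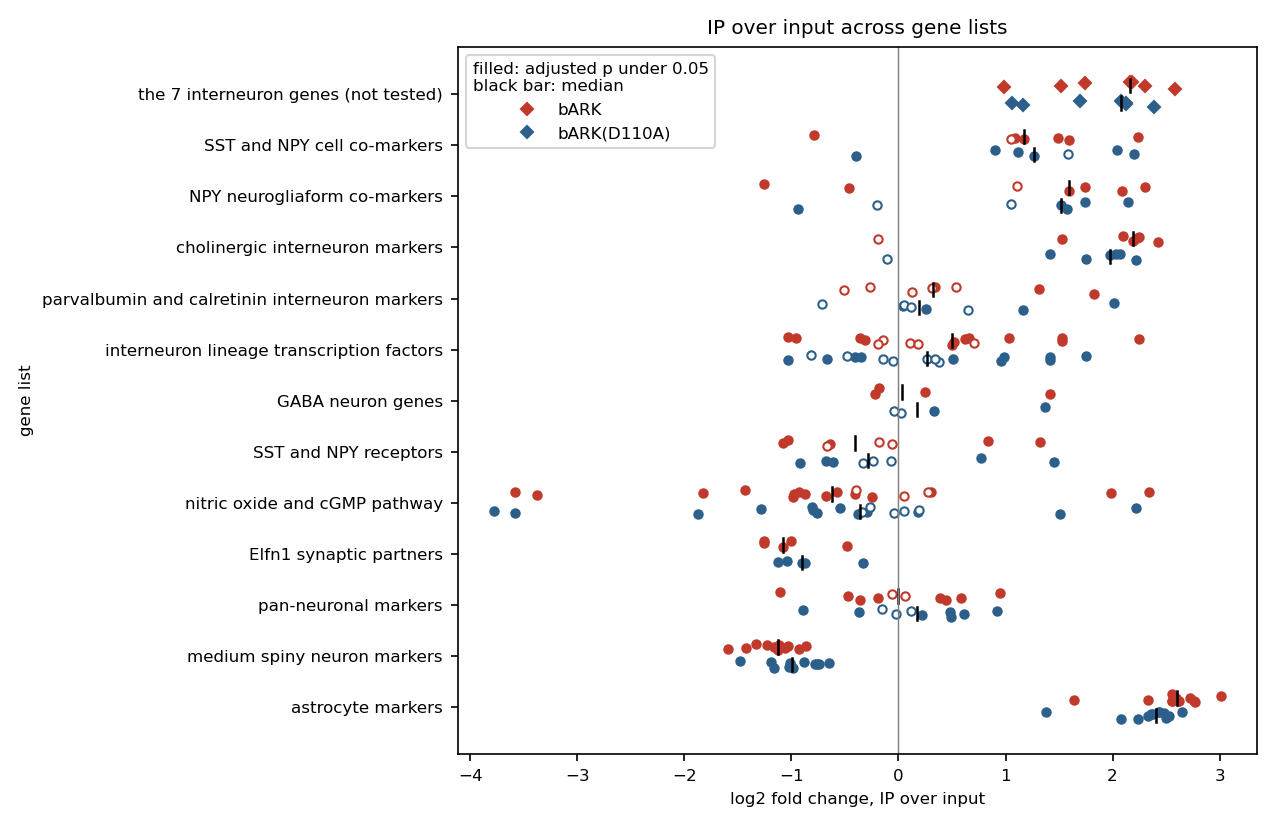
log2 fold change of IP over input (x axis) for the genes of each list (y axis) in bARK (red) and bARK(D110A) (blue). Filled circles passed edgeR's test, open circles did not, diamonds are the 7 genes described without a test, and black bars are medians. Cholinergic markers, with medians of 2.19 in bARK and 1.98 in bARK(D110A), lie near the 7 genes, and medium spiny neuron markers, with medians of -1.13 in bARK and -0.99 in bARK(D110A), lie below 0.

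Genes were ranked by how like their pattern over the 16 libraries was to the average of Sst, Npy and Nos1. Which cells express the nearest genes was not tested. Likeness was the root mean square difference between centred log2(CPM + 1) profiles, over 13791 other genes with a mean of at least 1 CPM. The nearest were Sardh, a mitochondrial enzyme of sarcosine breakdown, at 0.0843, the granin Scg3 at 0.0845 and the perineuronal proteoglycan Bcan at 0.0875. Pcdhgc3, Cldn10, Dbx2 and Slc7a2 were also among the 8 nearest, up to 0.0984. Bcan was nearest to Sst alone, the glutamine synthetase gene Glul to Npy alone, at 0.0758, and the glutamate transporter gene Slc1a2 to Nos1 alone, at 0.0876. Tacr1 lay at 0.109, Chat at 0.133 and Aldh1l1 at 0.211, and of the other genes of the set Chodl lay at 0.303, Lhx6 at 0.332, Nkx2-1 at 0.619 and Elfn1 at 0.715. Ppp1r1b, a medium spiny neuron gene, lay at 1.67. This measure includes the difference between IP and input, which chose the 7 genes, so it is given as a description.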

How the data were processed

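The deposited table holds read counts per gene as whole numbers, 24060 lines for 24058 symbols, of which 4017 had 0 reads throughout. Libraries were made from 100 ng of RNA and a Nugen Ovation kit after enrichment for mRNA, per the labels' protocols. The authors' notes name bcl2fastq 2.17, STAR, HTSeq, limma and mm10, per the submitters' processing notes. Versions of aligner and counter, the annotation and the strand setting are not given in the sources used here. The 2 symbols on more than 1 line were not named.

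From the counts, edgeR 4.0.16 in R 4.3.3 gave quasi-likelihood tests (robust, TMM, filterByExpr at a minimum count of 10, Benjamini-Hochberg over all genes tested, threshold 0.05). All 16 libraries entered 1 fit for IP against input and its difference between constructs, and 8 IP or 8 input libraries the construct comparisons. CPM used TMM library sizes. DESeq2 1.42.0, other scalings, no filter, a replicate block and leaving out each library were alternatives. The code was tested on simulated data. Correlations used exact permutation tests on log2(CPM + 1).

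Replicate numbers were taken to pair IP and input, because deviations from group means correlated at 0.213 to 0.639 for the same number. The main fit of IP against input and its difference between constructs had no term for this pairing. Its standard errors, intervals and calls therefore treat paired libraries as independent, and only the replicate block used the pairing. From each list, up to 3 genes with the largest mean absolute fold called in both constructs were named. A few others were chosen after their values were seen (Calb1, Cort, Lamp5, Reln, Isl1, Pvalb, Npy6r, Nos3, Ppp1r1b). Some genes that this rule takes are not reported here. The members and lists were chosen with earlier results of these data known. Coordinates are 1-based, GRCm38.p6, from RefSeq, as are start regions; exon lengths and overlapping genes come from GENCODE.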

Additional observations from a re-analysis of the deposited data

Results flagged for a closer look

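In 42 groups of 4 values (the CPM of each of the 7 genes in each group and the log2 of its IP to input ratio by replicate number in each construct), 2 values lay far from the other 3 of their group by Dixon's test, and chance alone flags about 5% of groups. Nos1 in bARK input had 53.6 CPM in library 2 and 62.9 to 64 CPM in the other 3. Nkx2-1 in bARK IP had 5.55 CPM in library 4 and 7.05 to 7.13 CPM in the other 3. For the Nos1 IP to input ratio in bARK, where number 2 gave 7.99-fold and the other 3 gave 5.19 to 5.59-fold, Dixon's ratio was 0.828 on the log2 scale, just under the critical value, and 0.857, above it, on the linear scale, a scale tried after the data were seen.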

How the results depend on the processing

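The log2 fold changes of the 7 genes between IP and input kept their direction under every alternative run, 91 of 91 values in each construct. Between constructs, DESeq2 called 47 genes in IP and 7 in input where edgeR called 0, and none of the 7 genes. No alternative called any of the 7 genes between constructs. Values near 0 changed sign under alternatives, mostly when single libraries were left out: Nkx2-1 ranged from -0.07 to 0.08 in IP, Chodl from -0.07 to 0.16 in IP, -0.15 to 0.11 in input and -0.06 to 0.20 for the enrichment difference, Sst from -0.08 to 0.05 in input, Npy from -0.01 to 0.09 in input and -0.02 to 0.14 for the enrichment difference, Elfn1 from -0.24 to 0.08 and Lhx6 from -0.03 to 0.12 for the enrichment difference. The cause was not tested. With the replicate block, 12659 genes were called between IP and input in bARK and 12400 in bARK(D110A), against 12010 and 11677 without it, and 0 in each construct comparison. Replicate numbers do not pair libraries across constructs, where same-numbered libraries correlated at -0.366 to 0.207. The 54 other genes checked were 48 taken by the naming rule and 6 named after their values were seen, without Lamp5 and Reln. Of their values, 1384 of 1404 kept their side of the threshold. The other 20 were those of Calb1, Cort, Isl1, Gad1 and Kcnc1 given above, Isl1 in bARK(D110A) under scaling by library size alone (-0.27), Mobp in bARK without IP 2 (-0.72), and Ttr in bARK without input 1 (-1.52). Between IP and input the block also gave 13 lower and 4 higher nitric oxide genes in bARK and 12 lower in bARK(D110A), 9 higher lineage factors in bARK and 7 higher and 5 lower in bARK(D110A), 4 lower receptors in bARK, and 4 higher parvalbumin and calretinin markers in bARK. The correlation of Npy and Nos1 in IP, 0.84 when centred within constructs, had an adjusted exact permutation p of 0.0677. In input, Nkx2-1 and Chodl rest on 66 to 136 reads a library, which limits their precision.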
